A study of Mus musculus with 8 samples.

Results

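The genes described here build the oligosaccharide of N-linked glycoproteins, transfer it to protein and trim it. They form a list of 39 genes given by name, drawn up with earlier results of these data known, and all 39 were found among the 22180 genes that the array measures through probe sets of their own. Of these, 38 had 1 such probe set. Ost4 had 2 and was represented by the one with the higher mean. All 39 passed the filter on dim signal that left 13308 genes for testing, and the dimmest of them, Dpm3, lay at percentile 51.3 of all genes by its mean over the arrays.

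The samples were cultures of C2C12, a mouse myoblast line that forms myotubes. All carried a retrovirus before differentiation, either siScramble as the control or siBaf60c, which carries an shRNA that lowers Baf60c. Baf60c is the protein of the gene Smarcd3 and belongs to the BAF complex, which remodels chromatin. As myotubes they were kept for 12 h in glucose at 1 mM or at 10 mM. The 4 groups, control at 1 mM, control at 10 mM, knockdown at 1 mM and knockdown at 10 mM, held 2 arrays each. The study used 1 cell line, and the sources used here do not say whether the transduced cells were a pool or clones. The series calls the replicates independent biological replicates, so the p-values measure the spread between such pairs of cultures.

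N-glycosylation starts with sugar donors in the cytosol and with dolichol, a lipid of the endoplasmic reticulum membrane on which the oligosaccharide is assembled. Enzymes named Alg add sugars to this lipid, at first on the cytosolic face and then, after the lipid has flipped, on the lumenal face of the membrane. The oligosaccharyltransferase complex then moves the finished oligosaccharide to asparagine residues of new proteins, and glucosidases and a folding sensor work on it while the protein folds. Muscle cells use the pathway for receptors, adhesion proteins and matrix proteins, and inherited defects in several of its genes cause congenital disorders of glycosylation, some with muscle weakness.

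The labels were checked first. The probe set shared by Smarcd3 and Chpf2 was at 5.62 and 5.40 (log2) on the control arrays and at 3.01 and 2.77 on the knockdown arrays at 1 mM, and at 6.27 and 6.09 against 3.90 and 4.49 at 10 mM, so it was lower on every knockdown array at the same glucose level. All 7 myotube markers passed the filter. Myog lay between 8.62 and 10.16, Acta1 between 10.52 and 11.70, Myh3 between 7.55 and 10.77 and Ckm between 3.82 and 6.81. The lowest value of each of these was on a knockdown array at 1 mM. Replicates correlated at 0.987 to 0.990 across genes, and arrays of different groups at 0.939 to 0.984. Array medians over these genes were 5.89 to 6.02.

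Of the 39 genes, 14 were lower at 10 mM than at 1 mM glucose in control and in knockdown cells alike. In control myotubes 17 of the 39 passed the test (limma, adjusted p under 0.05), 16 lower and 1 higher, and 22 did not. In knockdown myotubes the counts were 16, 1 and 22 as well. Of all tested genes 25.3% were called in control cells, 12.1% lower and 13.2% higher, and 25.1% in knockdown cells, 10.6% lower and 14.5% higher. The members' median log2 change was -0.43 in both, against -0.01 and 0.03 for all tested genes. With all arrays shifted to the same median, the knockdown split of all calls turned from 1936 higher and 1406 lower to 1612 and 1826. For the members it was then 1 higher and 21 lower. The largest falls in control cells were those of Magt1 (an oxidoreductase subunit of the transferase), Alg12 and Alg2 (mannosyltransferases), Prkcsh (a glucosidase subunit) and Rpn1 (a transferase subunit), between 2.38-fold and 2.83-fold. In knockdown cells Magt1, Alg12, Alg2 and Rpn1 also led, at 2.16-fold to 2.57-fold.

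Both comparisons named the same genes to a large extent, and they share no arrays, though the fit pools the spread of all 8. Beside the 14 that fell in both, 1 rose in both, and 20 were called in neither. Mogs and Uggt1 were called in control cells alone, and Gmppb and Srd5a3 in knockdown cells alone. Among all tested genes, 7.84% fell in both, against 35.9% of the members. Averaged over both cell populations, a comparison added after the data were seen, 23 members fell and 3 rose, where 17.8% of all tested genes fell and 21.3% rose.

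**Figure D1:**
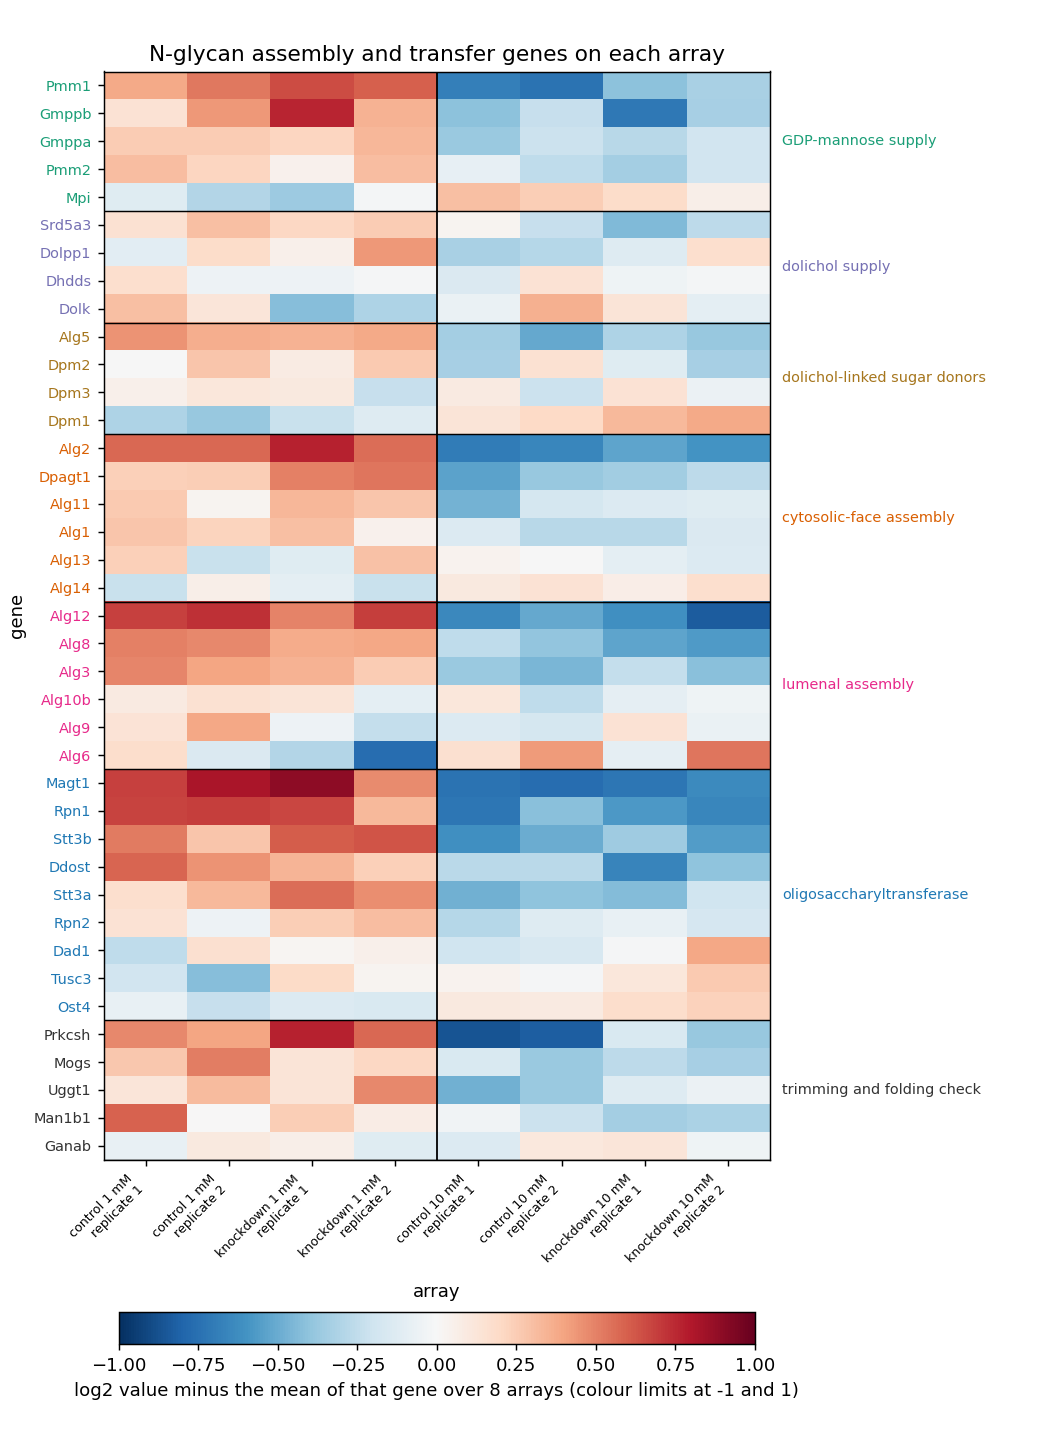
Each row is 1 of the 39 genes and each column 1 of the 8 arrays, with the 4 arrays at 1 mM glucose left of the black line and the 4 at 10 mM right of it. Colour gives the log2 value minus that gene's mean over 8 arrays. Most rows turn from red to blue at the line. Dpm1, Mpi and Ost4, called higher over all 8 arrays, turn the other way. Among rows not called, Alg6, Alg14 and Tusc3 had higher means at 10 mM in both control and knockdown cells.

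Some markers of cell types moved with glucose too. For comparison, 13.2% of all tested genes rose and 12.1% fell in control cells, and 14.5% and 10.6% in knockdown cells. Of 7 myotube markers 4 rose in control and 7 in knockdown cells, and their summed signal went from 13.01 to 13.12 (log2) on the control arrays at 1 mM to 13.55 to 13.67 at 10 mM, and from 11.95 to 12.05 to 12.89 to 12.96 after knockdown. Of 6 fibroblast and smooth muscle markers 5 and 4 rose, with sums of 11.79 to 11.88 on all arrays at 1 mM and 12.74 to 12.97 at 10 mM. Of 5 myoblast markers 2 rose (Cd34 and Id3) and 2 fell (Hmga2 and Myf5) in each. Their summed signal was 9.79 to 9.97 on the control arrays at 1 mM and 9.08 to 9.31 at 10 mM. After knockdown it was 9.80 to 9.84 at 1 mM and 8.86 to 8.87 at 10 mM. Macrophage markers were dim, with sums of 4.56 to 5.34 on all arrays; Adgre1 and Csf1r did not pass the filter, and Cd68 and Ptprc fell in knockdown cells. None of the 2 adipocyte markers that passed was called by limma. The part of these shifts in the falls of the glycosylation genes was not tested, and in RNA of whole cultures fewer cells of a type and less RNA per cell cannot be told apart.

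Promoter sequence was available for 34 members from RefSeq (GRCm38.p6, 250 bases before to 50 bases after the gene start). These were searched on both strands for elements through which the unfolded protein response, the amino acid response and glucose are known to act on promoters, since so many members changed together. The ER stress response element was found in 1 member, Alg12, and in 0.119% of all promoters (39 of 32851). It is shown with its surrounding bases, on the minus strand at chr15:88819505-88819553, 5′ to 3′, with the element in capitals. It ends 201 bases before the gene start.

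Alg12: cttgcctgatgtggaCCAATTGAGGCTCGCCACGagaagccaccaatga

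No member held the second form of that element in this window (0.0365% of all promoters). Neither the unfolded protein response element (TGACGTGG, 0.676%) nor the C/EBP-ATF response element (TGATGNAAT, 0.965%) was found in a member. With shares this low, 0 of 34 members lies near the share of all promoters, so these absences do not set the members apart. Whether the unfolded protein response or the amino acid response acted on the members was not tested. The pattern searched for the carbohydrate response element was in 0 promoters of any gene, so its absence from the members says nothing about them. Promoters of Alg2, Alg11, Dpagt1, Gmppb and Tusc3 were not analysed here.

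GDP-mannose, the donor of the mannose residues, is made by 5 of the members. In control cells 2 of them fell and in knockdown cells 3, and none rose in either. Of all tested genes 12.1% fell and 13.2% rose in control cells, and 10.6% and 14.5% in knockdown cells. Pmm1, a phosphomannomutase, read 7.98 and 8.12 in control cells at 1 mM and 6.91 and 6.85 at 10 mM, and 8.25 and 8.19 against 7.18 and 7.27 after knockdown. All 4 arrays at 10 mM lay below all 4 at 1 mM. It fell 2.24-fold in control cells (log2 change -1.17 ± 0.12 SE, adjusted p = 0.000899, n = 2 arrays per group here and below) and 1.99-fold in knockdown cells (adjusted p = 0.00141). Its paralog Pmm2, the main enzyme of this step, read 7.70 and 7.60 against 7.30 and 7.13 in control cells and 7.43 and 7.69 against 7.04 and 7.19 after knockdown. The groups did not overlap, but neither change passed the test (-0.43 ± 0.15 and -0.44 ± 0.15, adjusted p = 0.0711 and 0.0659). Over all 8 arrays Pmm2 fell (-0.44 ± 0.10, adjusted p = 0.0135), though not without knockdown replicate 1 at 10 mM (adjusted p = 0.0524).

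Gmppb, the catalytic subunit of GDP-mannose pyrophosphorylase, read 4.72 and 5.01 against 4.16 and 4.34 in control cells and 5.34 and 4.92 against 3.86 and 4.24 in knockdown cells. Its change was -0.61 ± 0.21 in control cells (adjusted p = 0.0696), and it fell 2.11-fold in knockdown cells (adjusted p = 0.00853), where the call was lost without replicate 1 at 10 mM (adjusted p = 0.0598). Gmppa, the subunit that regulates this enzyme, had tight replicates. It read 8.11 and 8.11 against 7.49 and 7.64 in control cells, and 8.08 and 8.19 against 7.58 and 7.66 in knockdown cells. It fell 1.46-fold and 1.42-fold (adjusted p = 0.0189 and 0.0243). These calls were lost when control replicate 1 or 2 at 1 mM or replicate 1 at 10 mM was left out (adjusted p of 0.0752, 0.0755 and 0.0841), when any knockdown array was left out (0.0578 to 0.127), when the fit held only the groups compared (0.0544 and 0.0546), and in knockdown cells with no filter on dim genes (0.0516).

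Mpi, which makes mannose 6-phosphate from the glycolytic intermediate fructose 6-phosphate, stood on the other side. It was at 0.48 ± 0.16 in control cells (adjusted p = 0.062) and 0.31 ± 0.16 in knockdown cells (adjusted p = 0.194). Over all 8 arrays it rose (0.39 ± 0.11, adjusted p = 0.0257), a call that was lost on leaving out any of 6 of the arrays (adjusted p of 0.0524 to 0.0842; both other arrays, control replicate 1 and knockdown replicate 2 at 1 mM, kept it) and on centring each array on its median (0.0532).

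Of the 4 dolichol supply genes, 0 were called by limma in control cells and 1 in knockdown cells. Of all tested genes 25.3% and 25.1% were called, and 4 genes are too few to set against these shares. The same limit holds for the other classes of 4 to 6 genes, where shares of all genes are given only beside the counts. Srd5a3, which acts in the conversion of polyprenol to dolichol, read 5.87 and 6.01 against 5.74 and 5.48 in control cells and 5.92 and 5.97 against 5.27 and 5.45 in knockdown cells. Its change was -0.33 ± 0.15 (adjusted p = 0.146) in the former, and it fell 1.5-fold in the latter (adjusted p = 0.0258). Leaving out any of the 4 knockdown arrays ended that call (adjusted p of 0.0617 to 0.143). Averaged over both comparisons it fell (-0.45 ± 0.10, adjusted p = 0.0113), and none of the alternatives ended that call. Dolpp1, which recycles dolichyl diphosphate, read 5.09 and 5.38 against 4.87 and 4.91, and 5.24 and 5.62 against 5.06 and 5.36, so that its knockdown groups overlapped. Its changes were -0.35 and -0.22 (adjusted p = 0.221 and 0.441). Dhdds, a subunit of the enzyme that makes the long carbon chain of dolichol, was at -0.06 and 0.00 ± 0.15. For Dolk, the kinase that makes dolichyl phosphate, the changes were -0.06 ± 0.18 and 0.38 ± 0.18 (adjusted p = 0.831 and 0.162).

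The enzymes that load sugars on dolichyl phosphate went opposite ways. Alg5, which makes dolichyl phosphate glucose, read 8.15 and 8.06 against 7.36 and 7.19 in control cells and 8.05 and 8.08 against 7.39 and 7.33 in knockdown cells. It fell 1.78-fold (-0.83 ± 0.13, adjusted p = 0.00362) and 1.63-fold (adjusted p = 0.00616). Dpm1, the catalytic subunit of dolichyl phosphate mannose synthase, was the only member that rose in either comparison. It read 6.78 and 6.71 against 7.22 and 7.29 in control cells, and 6.87 and 6.96 against 7.41 and 7.47 in knockdown cells, with every array at 10 mM above every array at 1 mM. Its changes were 0.51 ± 0.12 (adjusted p = 0.0209) and 0.53 ± 0.12 (adjusted p = 0.0172).

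Dpm1's calls had little margin. That in control cells was lost without any of the 4 control arrays (adjusted p of 0.0573 to 0.0950) and in the fit of only the groups compared (0.0618), and that in knockdown cells without any knockdown array but replicate 2 at 1 mM (0.0733 to 0.0951). Over all 8 arrays the rise was 0.52 ± 0.09 (adjusted p = 0.00265), and leaving out any array did not end it. The membrane subunits of the same enzyme were not called: Dpm2 was at -0.23 and -0.40, and Dpm3, the dimmest member, at -0.14 and 0.11. The difference between Alg5 and Dpm1 on each array, log2 of Alg5 minus log2 of Dpm1, lay between 1.13 and 1.37 at 1 mM and between -0.15 and 0.14 at 10 mM.

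On the cytosolic face of the membrane, 2 of 6 enzymes fell in each comparison and 0 rose. The shares of all tested genes in control and knockdown cells were 12.1% and 10.6% lower and 13.2% and 14.5% higher. Dpagt1, which places the first sugar and is the target of tunicamycin, read 7.61 and 7.62 against 6.83 and 6.99 in control cells and 7.88 and 7.91 against 7.02 and 7.11 in knockdown cells. It fell 1.63-fold (-0.70 ± 0.12, adjusted p = 0.00653) and 1.77-fold (-0.83 ± 0.12, adjusted p = 0.00301). Alg2, which adds inner mannose residues, read 8.34 and 8.34 against 7.07 and 7.11, and 8.54 and 8.32 against 7.23 and 7.17. The gap between the glucose levels was much wider than that between any replicates of this gene. It fell 2.38-fold in control cells (-1.25 ± 0.13, adjusted p = 0.000806) and 2.34-fold in knockdown cells (-1.23 ± 0.13, adjusted p = 0.000725).

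Alg1, which adds the first mannose, and Alg11, which adds the last mannose residues on this face, had changes of -0.45 and -0.47 in control cells and -0.38 and -0.43 in knockdown cells. None of these passed the test (adjusted p between 0.0557 and 0.0949), and over all 8 arrays both fell (adjusted p = 0.0145 and 0.0138). For Alg1 that call was lost without knockdown replicate 1 at 10 mM (adjusted p = 0.0554). Alg13 and Alg14 form the enzyme that adds the second sugar. Neither was called, with Alg13 at 0.01 and -0.20 and Alg14, the membrane anchor of the pair, at 0.20 and 0.28.

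Among the lumenal transferases, 3 of 6 fell in both comparisons, against 7.84% of all tested genes. Alg12, a mannosyltransferase and the gene with the element printed above, read 8.45 and 8.50 against 7.12 and 7.25 in control cells and 8.26 and 8.46 against 7.16 and 6.94 in knockdown cells. It fell 2.44-fold (-1.29 ± 0.14, adjusted p = 0.00103) and 2.49-fold (-1.31 ± 0.14, adjusted p = 0.000818). Alg8, which adds a glucose residue, read 6.82 and 6.79 against 6.05 and 5.91, and 6.68 and 6.70 against 5.79 and 5.74. Its replicates lay close together in all 4 groups, and no array at 10 mM reached those at 1 mM. It fell 1.77-fold (adjusted p = 0.00322) and 1.90-fold (adjusted p = 0.0017).

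Alg3, the mannosyltransferase that acts first in the lumen, fell 1.81-fold and 1.55-fold (adjusted p = 0.00359 and 0.0115). The call in knockdown cells was lost without replicate 1 at 1 mM or replicate 2 at 10 mM (adjusted p = 0.0582 and 0.0798). Alg9, a mannosyltransferase that acts before and after Alg12, was at -0.42 ± 0.15 in control cells and 0.19 ± 0.15 in knockdown cells (adjusted p = 0.0815 and 0.422). Alg6, which adds the first glucose, had the widest spread of the members. It read 5.75 and 5.42 against 5.73 and 5.99 in control cells, and 5.28 and 4.81 against 5.48 and 6.11 in knockdown cells. Its changes were 0.28 ± 0.26 and 0.75 ± 0.26 (adjusted p = 0.481 and 0.0735), and without knockdown replicate 1 at 10 mM the latter became 1.07 and passed (adjusted p = 0.0453). With all arrays kept it passed among the brighter genes alone (0.0312) and with the trend and robust options of limma (0.0291). Alg10b, which adds the last glucose, was at -0.19 and -0.08.

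**Figure D2:**
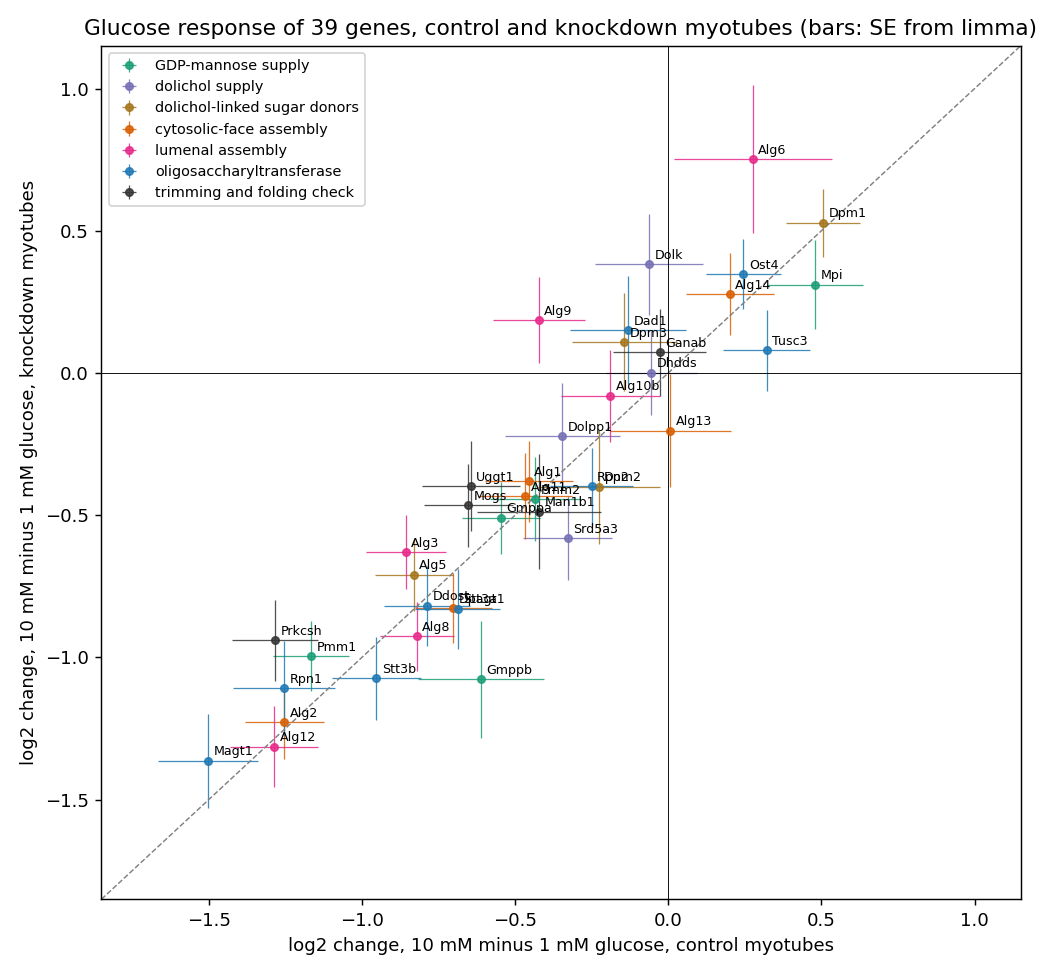
Each point is 1 of the 39 genes, with its log2 change from 1 mM to 10 mM glucose in control myotubes (horizontal) and in knockdown myotubes (vertical); bars are standard errors from limma and the dashed line marks equal change. Magt1, Alg12 and Alg2 lie lowest near the dashed line, and 32 of the 39 genes have the same sign in both, as have 10223 of all 13308 tested genes.

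The oligosaccharyltransferase is a complex of shared subunits around a catalytic subunit, which is either Stt3a or Stt3b. Complexes with Stt3a work at the translocon while the chain is being made, and those with Stt3b take sites that were missed and carry Magt1 or Tusc3 as an oxidoreductase subunit. Of the 9 measured genes, 5 fell in both comparisons, against 7.84% of all tested genes: Stt3a, Stt3b, Rpn1, Ddost and Magt1. None rose in either. The median change of the 9 was -0.69 in control cells and -0.82 in knockdown cells.

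Stt3a read 10.42 and 10.57 against 9.77 and 9.85 in control cells and 10.81 and 10.71 against 9.81 and 10.05 in knockdown cells. It fell 1.61-fold (-0.69 ± 0.14, adjusted p = 0.0113) and 1.78-fold (adjusted p = 0.00498). The call in control cells was lost without replicate 2 at 1 mM (adjusted p = 0.0664) or replicate 1 at 10 mM (adjusted p = 0.0550). Both catalytic subunits moved the same way. Stt3b read 10.30 and 10.05 against 9.16 and 9.28, and 10.38 and 10.40 against 9.42 and 9.22, and fell 1.94-fold (adjusted p = 0.00362) and 2.10-fold (adjusted p = 0.00195).

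The oxidoreductase subunits differed. Magt1 read 9.67 and 9.80 against 8.24 and 8.22 in control cells, and 9.88 and 9.46 against 8.26 and 8.35 in knockdown cells. The 4 arrays at 10 mM lay close together and more than 1 log2 unit below the lowest array at 1 mM. It fell 2.83-fold (-1.50 ± 0.16, adjusted p = 0.000988) and 2.57-fold (-1.36 ± 0.16, adjusted p = 0.00122), the largest falls among the members in each comparison. Tusc3 read 7.86 and 7.63 against 8.09 and 8.05 in control cells, and 8.25 and 8.08 against 8.17 and 8.32 in knockdown cells, where its groups overlapped. Its changes were 0.32 ± 0.14 (adjusted p = 0.142) and 0.08 ± 0.14 (adjusted p = 0.732).

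Rpn1, a shared subunit, read 9.60 and 9.62 against 8.21 and 8.51 in control cells, and 9.60 and 9.25 against 8.36 and 8.28 in knockdown cells. It fell 2.38-fold (adjusted p = 0.00214) and 2.16-fold (adjusted p = 0.00303). Its partner Rpn2 was at -0.25 ± 0.14 and -0.40 ± 0.14 (adjusted p = 0.221 and 0.0698). On each array the difference between the log2 values of Rpn1 and Rpn2 was 0.54 to 1.27 at 1 mM and 0.03 to 0.24 at 10 mM, so the arrays did not overlap. Ddost, a further shared subunit, read 10.33 and 10.20 against 9.48 and 9.48, and 10.09 and 9.99 against 9.09 and 9.35. It fell 1.73-fold and 1.76-fold (adjusted p = 0.00654 and 0.00519).

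The small subunits Dad1 and Ost4 were not called in either comparison. Dad1 was at -0.13 and 0.15, and Ost4 at 0.25 ± 0.12 and 0.35 ± 0.12 (adjusted p = 0.187 and 0.0779). Over all 8 arrays Ost4 rose (0.30 ± 0.09, adjusted p = 0.0298) and Rpn2 fell (-0.32 ± 0.10, adjusted p = 0.0314). Leaving out any array but control replicate 1 at 1 mM ended the call of Ost4 (adjusted p of 0.0639 to 0.0899), and that of Rpn2 was lost without any array but control replicate 2 at either glucose level (0.0605 to 0.0968). With no filter on dim genes neither was called (adjusted p = 0.0634 and 0.0610), nor was Ost4 with each array centred (0.0689). The second probe set of Ost4 read 10.13 to 10.30 at 1 mM and 10.40 to 10.50 at 10 mM, so its arrays did not overlap either.

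**Figure D3:**
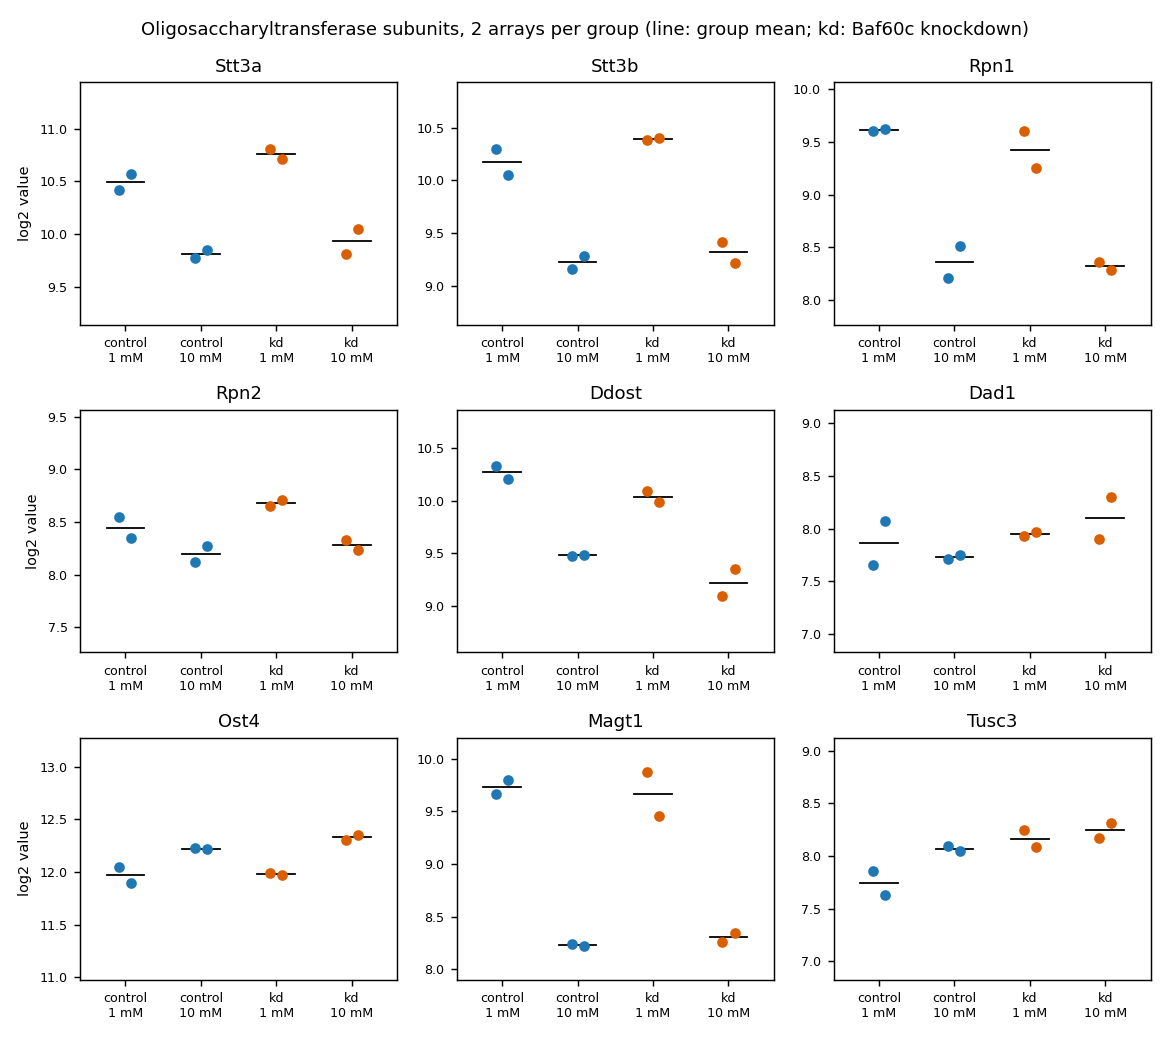
Each panel plots the log2 values of 1 oligosaccharyltransferase subunit on the 8 arrays, 2 per group, with a line at the group mean; all panels span the same number of log2 units. Stt3a, Stt3b, Rpn1, Ddost and Magt1 step down at 10 mM in control and knockdown cells, while Dad1, Ost4 and Tusc3 do not.

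For 4 pairs of paralogs, the difference between their log2 values was taken on each array and compared between glucose levels by an exact two-sided permutation test over 70 splits of the 8 arrays, whose smallest possible p is 0.0286. Tusc3 minus Magt1 was -2.17 to -1.37 at 1 mM and -0.18 to -0.03 at 10 mM, a mean shift of 1.63 (exact permutation p = 0.0286, adjusted p = 0.0571). Pmm1 minus Pmm2 was 0.28 to 0.81 at 1 mM and -0.39 to 0.14 at 10 mM, a shift of -0.64 (exact permutation p = 0.0286, adjusted p = 0.0571). Both pairs separated without overlap and reached the smallest p that the splits allow, but neither passed after adjustment over 4 pairs. Stt3a minus Stt3b shifted by 0.25 (exact permutation p = 0.0857, adjusted p = 0.114) and Gmppa minus Gmppb by 0.32 (exact permutation p = 0.114, adjusted p = 0.114), with overlap between the glucose levels. These splits exchange arrays between control and knockdown cells. With splits kept within each, added after the data were seen, there are 36, the smallest possible p is 0.0556, and no pair could pass: Tusc3 minus Magt1 and Pmm1 minus Pmm2 were both at that limit (exact permutation, adjusted p = 0.111).

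Trimming and the folding check are represented by 5 genes, of which 3 fell in control cells and 1 in knockdown cells, where 12.1% and 10.6% of all tested genes fell. In the average of both comparisons 4 of the 5 fell. Prkcsh, the regulatory subunit of glucosidase II, read 8.92 and 8.83 against 7.57 and 7.61 in control cells, and 9.21 and 9.01 against 8.28 and 8.05 in knockdown cells. It fell 2.43-fold (-1.28 ± 0.14, adjusted p = 0.00101) and 1.92-fold (-0.94 ± 0.14, adjusted p = 0.00299). The catalytic subunit of the same enzyme, Ganab, was at -0.03 ± 0.15 and 0.07 ± 0.15 (adjusted p = 0.919 and 0.772). Prkcsh minus Ganab lay between 0.79 and 1.20 on the arrays at 1 mM and between -0.44 and 0.21 at 10 mM. This pair, like that of Rpn1 and Rpn2 and that of Alg5 and Dpm1, was picked after the values were seen and was not tested.

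Mogs, glucosidase I, which removes the outermost glucose, read 5.66 and 5.90 against 5.24 and 5.02 in control cells and 5.52 and 5.60 against 5.13 and 5.07 in knockdown cells. It fell 1.57-fold in control cells (adjusted p = 0.016) and was at -0.46 ± 0.15 in knockdown cells (adjusted p = 0.0543). Uggt1, the folding sensor that puts glucose back on unfolded glycoproteins, fell 1.56-fold in control cells (adjusted p = 0.024) and was at -0.40 ± 0.16 in knockdown cells (adjusted p = 0.114). Man1b1, a mannosidase that marks glycoproteins for degradation, was at -0.42 and -0.49 (adjusted p = 0.175 and 0.126).

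The calls in control cells depended on single arrays. That of Uggt1 was lost without any of the 4 control arrays (adjusted p of 0.0520 to 0.120), and that of Mogs without control replicate 2 at 1 mM or at 10 mM (0.0884 and 0.0857). Over all 8 arrays both fell (-0.52 ± 0.11 and -0.56 ± 0.10, adjusted p = 0.00909 and 0.00441), and none of the alternatives ended those calls. Man1b1 fell over all 8 arrays (-0.45 ± 0.14, adjusted p = 0.0405), but not on leaving out any array except control replicate 2 at 1 mM (0.0599 to 0.114), nor with no filter on dim genes (0.0629). Without that array it passed in control cells as well (-0.72, adjusted p = 0.0406).

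Other genes of the pathway, outside the 39, were read from 2 further lists. Of 20 measured genes that assist N-glycosylation or check glycoproteins in the endoplasmic reticulum, 11 fell and 0 rose in each comparison, at medians of -0.57 and -0.49. That was 55% lower in each, against 41% of the 39 members. All tested genes were lower in 12.1% of cases in control and 10.6% in knockdown cells. Edem1, which passes misfolded glycoproteins to degradation, fell by 1.64 ± 0.12 and 1.55 ± 0.12 on the log2 scale (adjusted p = 0.000252 and 0.000284). The lectin chaperone gene Calr fell by 1.38 and 1.25 ± 0.13 (adjusted p = 0.000531 and 0.000636). Krtcap2, a subunit of the transferase complexes with Stt3a, fell by 1.44 and 1.22 ± 0.14 (adjusted p = 0.000578 and 0.000902).

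Genes that process N-glycans later, in the Golgi, were called in shares near those of all tested genes. Of 23 measured genes 3 fell and 5 rose in control cells (13.0% and 21.7%, against 12.1% and 13.2% of all genes), and 2 fell and 4 rose in knockdown cells (8.7% and 17.4%, against 10.6% and 14.5%), at medians of 0.02 and 0.09. Mgat2, which starts a second branch, fell by 0.65 and 0.75 ± 0.14 (adjusted p = 0.013 and 0.00677). The mannosidase genes Man1c1 (0.62 and 0.65 ± 0.13, adjusted p = 0.0121 and 0.00974) and Man2a2 (0.57 and 0.83 ± 0.14, adjusted p = 0.0255 and 0.00533) rose.

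**Figure D4:**
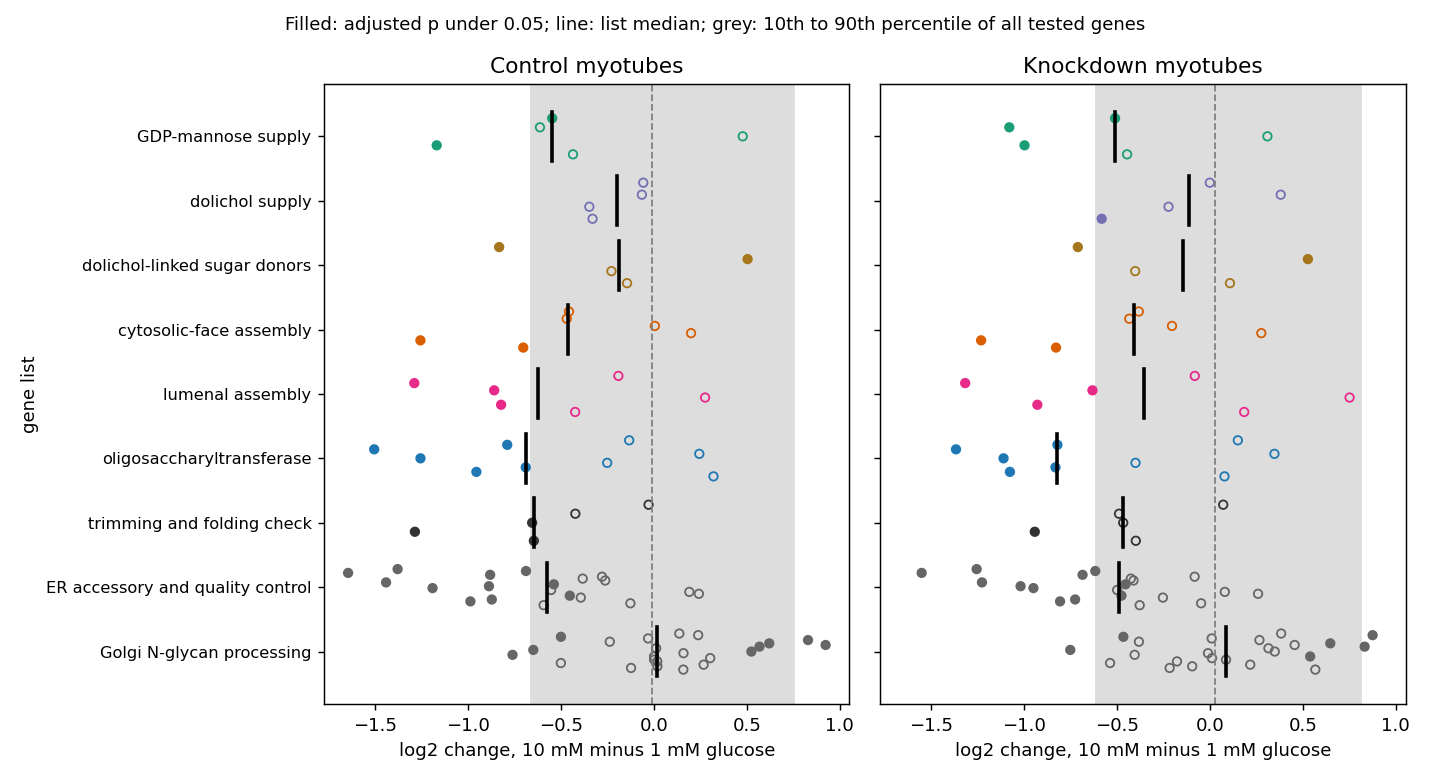
Each point is a gene, placed by its log2 change from 1 mM to 10 mM glucose in control (left) or knockdown (right) myotubes; rows are the 7 role classes of the 39 genes and the 2 further lists, and height within a row only separates points. The grey band spans the 10th to the 90th percentile of all tested genes. Filled points left of the band come from 6 of the 7 classes in control cells and from the endoplasmic reticulum list, while the Golgi list is centred near 0.

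Knockdown of Baf60c left no called change among the 39 genes. By limma 0 of 39 were called at 1 mM, at 10 mM and over both glucose levels together, where 1.49%, 1.12% and 4.31% of all tested genes were called. With shares this low, 0 of 39 lies near that of all genes and does not set the members apart. Those shares split into 1.25% lower and 0.233% higher at 1 mM, 0.691% and 0.428% at 10 mM, and 2.71% and 1.6% over both. At an unadjusted p under 0.05 the members numbered 3, 2 and 6, and all tested genes 15.9%, 13.6% and 19.7%. The members' median change was 0.00 at 1 mM, 0.06 at 10 mM and -0.02 over both. On the same arrays 7 of 7 myotube markers were called lower after knockdown over both glucose levels, 6 at 1 mM and 3 at 10 mM. The target's shared probe set was lower on every knockdown array.

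Prkcsh had the smallest p of the members in the average over both glucose levels. It was higher on both knockdown arrays than on both control arrays at each glucose level, by 0.23 ± 0.14 at 1 mM and 0.58 ± 0.14 at 10 mM (adjusted p = 0.476 and 0.129), and by 0.40 ± 0.10 over both (adjusted p = 0.0744). It was called with the trend and robust options of limma (adjusted p = 0.0135 at 10 mM and 0.00643 over both) and among the brighter genes alone (0.0271 over both), and not under the other alternatives. Tusc3 was at 0.42 ± 0.14 at 1 mM and 0.18 ± 0.14 at 10 mM (adjusted p = 0.223 and 0.663), and its average of 0.30 ± 0.10 (adjusted p = 0.164) passed with those options (0.0487). For Dolk, control arrays were at 6.51 and 6.33 and knockdown arrays at 5.79 and 5.90 at 1 mM (-0.58 ± 0.18, adjusted p = 0.186), while at 10 mM its groups overlapped (-0.13 ± 0.18). Magt1, which had the largest glucose response, differed by 0.00 ± 0.12 between knockdown and control over both levels, with a 95% interval from -0.27 to 0.27.

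No difference in the glucose response between knockdown and control cells was called by limma, for the 39 members or for any of the 13308 genes (0%). At an unadjusted p under 0.05 the count was 1 of 39 and 7.88% of all genes. That member was Alg9, which read 6.89 and 7.14 against 6.61 and 6.57 in control cells and 6.70 and 6.51 against 6.89 and 6.69 in knockdown cells. Its response differed by 0.61 ± 0.21 (adjusted p = 0.59). For Magt1 the difference was 0.14, with a 95% interval from -0.41 to 0.68, for Alg2 0.02 (-0.40 to 0.45) and for Alg12 -0.03 (-0.50 to 0.44). Differences of up to about these bounds were not resolved with 2 arrays per group.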

How the data were processed

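The authors deposited 1 log2 expression value per probe set and array, with RMA and affy named in the submitters' processing notes; their versions and the probe sets' genome build are not given in the sources used here. RMA gives every array the same distribution of probe intensities before summarising them, so a change shared by all transcripts is not visible. It compresses differences between dim signals, so folds of dim genes may be understated. Depth has no meaning for arrays; their number limits the precision.

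Of 41345 probe sets 23521 had 1 gene in the platform annotation, 1814 several and 16010 none; the last 2 kinds were left out, apart from the target's shared probe set. A gene with several probe sets was represented by the brightest. Genes with a mean below the 40th percentile (2.30) were dropped. The test was limma 3.58.1 under R 4.3.3, with lmFit and then eBayes (1 mean per group over all 8 arrays, 4 residual and 3.36 prior degrees of freedom). Its two-sided p-values were adjusted by Benjamini-Hochberg over 13308 genes. Errors are standard errors. The fit was tested on simulated data with known changes. The median error of a log2 change was 0.173.

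The 39 members and all lists were chosen with earlier results of these data known. Named with values on all arrays were 2 members per class with the smallest p-values, the paralogs and any called knockdown effect (none); uncalled members were named with their change, and 3 genes per further list. Ddost, Alg6 and Alg9 were given with values on all arrays outside this rule, chosen after their values were seen. Response elements in promoters were searched as consensus patterns taken from general knowledge, and those of 10 or more letters are given by name. Alternatives were other filters, scalings, variance models and probe set rules, a replicate block, only the groups compared, and leaving out each array. The scan order or hybridisation batch is not given in the labels.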

Additional observations from a re-analysis of the deposited data

How the results depend on the processing

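No called change of a member turned its direction under any of the 16 alternatives. Of the 15 members called in both glucose comparisons, 11 kept both calls in every alternative (Pmm1, Alg5, Dpagt1, Alg2, Alg12, Alg8, Stt3b, Rpn1, Ddost, Magt1 and Prkcsh); Gmppa, Stt3a, Alg3 and Dpm1 did not. Leaving out 1 array gave 13 to 18 called members for glucose in control cells, 13 to 17 in knockdown cells and 21 to 24 over both, and 0 for each knockdown comparison and the interaction. Other settings raised the glucose counts: the trend and robust options gave 23 in each comparison, the filter at the 60th percentile 22 and 23, and centring each array 20 and 22. Among the members that passed there and not in the main analysis were Pmm2, Alg1 and Alg11 in both comparisons, Alg9 in control cells and Rpn2 and Mogs in knockdown cells. With the trend and robust options 1 member was called for knockdown at 10 mM and 2 for its average; the filter at the 60th percentile, which drops Gmppb and Dpm3, called 1 for that average. Quantile normalization gave shifts of 1.63 for Tusc3 minus Magt1, -0.64 for Pmm1 minus Pmm2 and 0.51 for Gmppa minus Gmppb (exact permutation, adjusted p = 0.0381 each); the adjusted p of the former pairs moved because Gmppa minus Gmppb also reached the smallest possible p, so it says nothing about those pairs. Without 1 array at a time the shifts ran from 1.49 to 1.76, from -0.73 to -0.55 and from 0.19 to 0.41, and that of Stt3a minus Stt3b from 0.18 to 0.32. Replicate numbers were checked for pairing: the deviations of same-numbered arrays correlated at -0.04 to 0.11 between groups. No strong shared deviation was seen, but this cannot tell whether same-numbered arrays shared a culture day or a batch. With the replicate block, 17, 17 and 26 members were called for glucose in control cells, in knockdown cells and over both, and 0 for the rest, as without it.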
